A study of Homo sapiens with 8 samples.

Results

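The genes described here are 41 DNA replication and G1/S genes, taken by symbol from the 19479 genes that both deposited expression tables list, and followed over all 4 glucose conditions of the study. The rule goes by gene symbol. Replication begins when the origin recognition complex, CDC6 and CDT1 load the ring-shaped MCM helicase onto DNA in G1, a step called licensing. At the G1/S boundary cyclin E with CDK2 and the Cdc7 kinase lead to the joining of CDC45 and the GINS complex to that ring, and DNA polymerases, the sliding clamp PCNA and its loader then copy the DNA. Many of these genes are targets of E2F transcription factors, which the RB protein holds in check, so their RNA is high in dividing cells and low in the resting cardiomyocytes of the adult heart.

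The study used AC16, a human line that derives from ventricular heart muscle cells of an adult fused to a transformed fibroblast line, so it divides in culture. It is a single line. All groups were AC16 cells without any named genetic change. The 25 to 50 mM group was maintained in 25 mM D-glucose and then had glucose raised to 50 mM for 24 h, and the 25 mM group stayed at 25 mM. The 5 to 50 mM group was maintained in 5 mM glucose and raised to 50 mM for 24 h, and the 5 mM group stayed at 5 mM. Each maintenance glucose had been kept for at least 3 passages. Each of the 4 groups had 2 RNA-seq libraries, which the series describes as technical replicates, so p-values measure the spread between libraries and not between independent cultures.

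Library totals, recovered from the deposited values, ran from 21538898 to 27372851 reads. A filter on low values was passed by 2 of 12 cardiomyocyte markers, MYL2 and NKX2-5 were at 0 in all 8 libraries, and the cardiac troponin gene TNNT2 did not exceed 0.0945 RPKM (reads scaled to gene length and to library depth). All 12 fibroblast markers passed, with VIM between 3422 and 4684 RPKM. The labelled cell type is thus not shown by its defining markers. Summed fibroblast markers were 7685 to 8281 RPKM at 25 to 50 mM and 7443 to 7708 RPKM at 25 mM, against 8535 to 8800 RPKM at 5 to 50 mM and 7963 to 8454 RPKM at 5 mM. Summed cardiomyocyte markers were 2.32 to 2.52 RPKM at 25 to 50 mM and 2.31 to 4.47 RPKM at 25 mM, against 8.1 to 8.72 RPKM at 5 to 50 mM and 7.42 to 7.93 RPKM at 5 mM. Of 5 immune markers 2 passed the filter, and CD3E was at 0 in all 8 libraries. Summed immune markers were 86.4 to 93.0 RPKM in the cultures maintained at 25 mM, against 216 to 253 RPKM in those maintained at 5 mM. The part of these markers in any result below was not tested. In bulk RNA, fewer cells in S phase and less RNA per cell cannot be told apart.

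Promoter windows of 300 bases, 250 before to 50 after the annotated start, were available from RefSeq on GRCh38.p14 for 37 of the 41 genes. They were searched on both strands for 4 spellings of the E2F site, TTTCCCGC, TTTCGCGC, TTTGCCGC and TTTGGCGC, which can overlap one another when read on opposite strands. A match stood in the windows of 19 of the 37 genes (51.4%), against 838 of 15426 genes with a window in the table (5.43%), 6.94% of the genes tested and 2 of 17 G2/M genes (11.8%). The short word CCAAT stood in 21 of the 37 (56.8%), against 42.5% of all genes and 15 of 17 G2/M genes (88.2%). The sequences below are shown because they are the sites of the 5 matching genes that were higher at 25 mM than at 5 mM glucose, of MCM6 and E2F2, which were called higher in the comparison at 50 mM alone, and of CDT1 and TYMS, which were called in neither. Each is the 30 bases around 1 match, 5′ to 3′ on the gene's strand, with E2F letters in capitals. In MCM6 a pair of matches on opposite strands overlap. CHAF1A has no E2F match in its window and is shown over the 60 bases before its start, with 2 overlapping CCAAT matches on opposite strands in capitals.
GINS2, chr16:85688967-85688996, minus strand: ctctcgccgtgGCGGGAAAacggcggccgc
POLA2, chr11:65261898-65261927, plus strand: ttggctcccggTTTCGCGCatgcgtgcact
RFC3, chr13:33818083-33818112, plus strand: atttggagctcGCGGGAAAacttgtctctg
MCM7, chr7:100101566-100101595, minus strand: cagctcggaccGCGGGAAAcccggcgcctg
LIG1, chr19:48170440-48170469, minus strand: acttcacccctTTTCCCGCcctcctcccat
MCM6, chr2:135876511-135876540, minus strand: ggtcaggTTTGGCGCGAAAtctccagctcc
E2F2, chr1:23531257-23531286, minus strand: gcggcacgacgTTTGGCGCtaaaaaaaaaa
CDT1, chr16:88803743-88803772, plus strand: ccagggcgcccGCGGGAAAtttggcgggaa
TYMS, chr18:657603-657632, plus strand: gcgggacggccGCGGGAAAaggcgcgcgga
CHAF1A, chr19:4402580-4402639, plus strand: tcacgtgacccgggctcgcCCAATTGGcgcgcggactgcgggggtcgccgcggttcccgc

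Among genes with a window, an E2F match stood in 5 of 10 called higher at 25 mM than at 5 mM, in 0 of 3 called lower and in 14 of 24 not called. MCM5, called higher, and GINS4 and CCNE2, called lower, had no window and are not counted. CCAAT stood in 6 of the 10 called higher. A match is a string of letters and not a measured binding site.

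The replication genes were well expressed in all 4 conditions. All 41 passed the filter of at least 1 RPKM in at least 2 libraries, and the least covered, CCNE1, had 71 reads in its lowest library. Their median level over the 8 libraries was 79.5 RPKM, against 20.5 RPKM for the 11941 genes tested, and 39 of the 41 stood above that second value. Above 100 RPKM stood 13 of them, 25 lay between 25 and 100 RPKM, and 3 lay below, namely POLA1 at 23.4, E2F2 at 5.46 and CCNE1 at 4.43 RPKM. In 36 of the 41 the highest library was less than 1.5 times the lowest, a count for which no share over all genes is given. The median within-group SD was 0.058 on the log2 scale, against 0.078 for the genes tested, whose median level was lower.

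**Figure D1:**
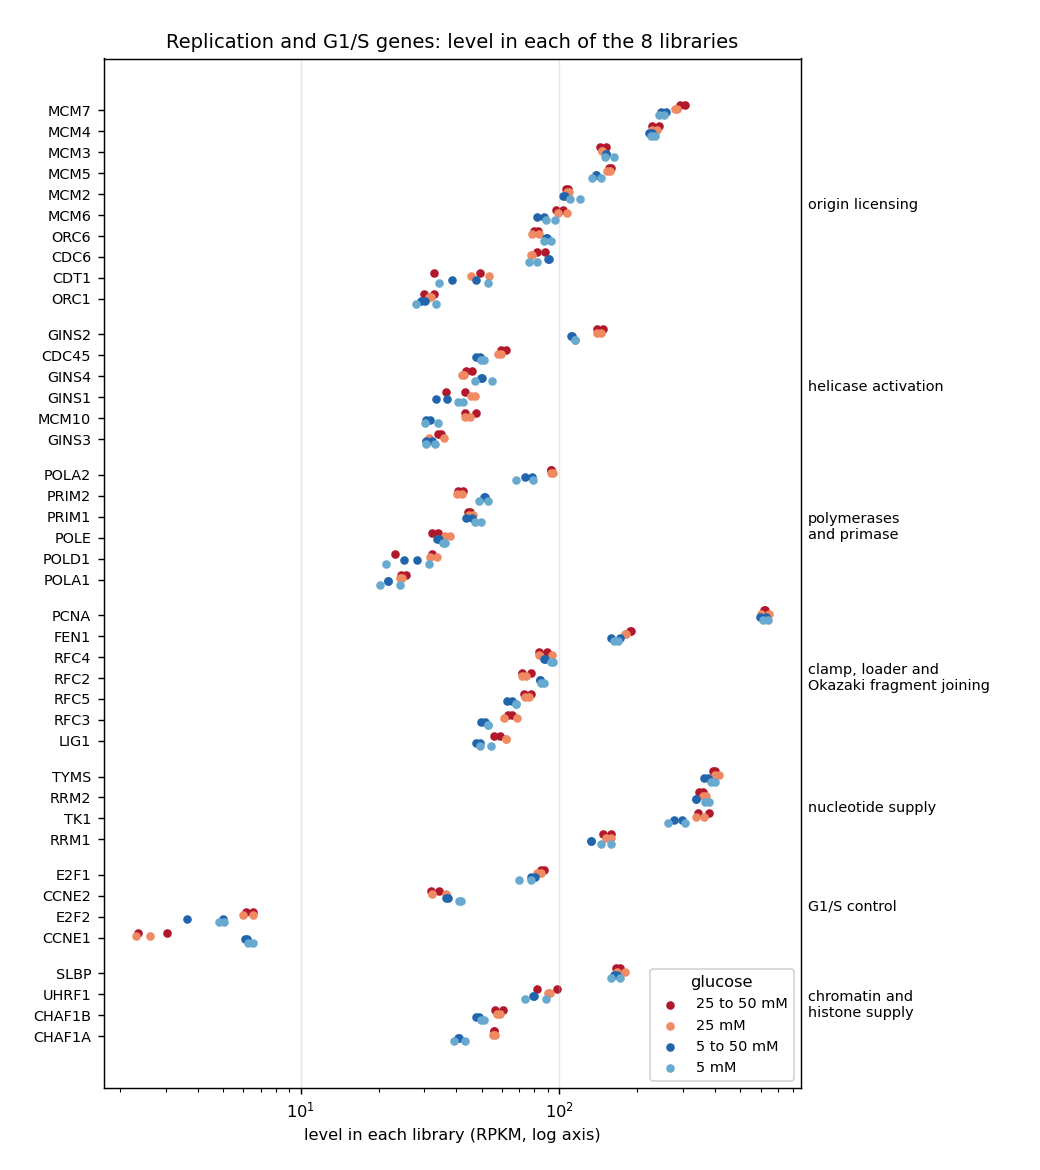
Level of each of the 41 genes in each of the 8 libraries, in RPKM on a log axis, ordered by role and by mean level and coloured by glucose condition. PCNA lies near 621 RPKM in every condition, while CCNE1 lies between 2.3 and 3.05 RPKM in the 4 libraries maintained at 25 mM and between 6.11 and 6.51 RPKM in the 4 maintained at 5 mM.

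Subunits that act in 1 complex did not have equal RNA levels. The 6 subunits of the MCM ring ran from 95.1 RPKM for MCM6 to 270 RPKM for MCM7, a ratio of 2.84. The GINS complex, which holds the helicase together, ran from 32.7 RPKM for GINS3 to 128 RPKM for GINS2, a ratio of 3.91. Within polymerase alpha and primase, which lay down the first primer, POLA2 at 83.9 RPKM was 3.59 times POLA1 at 23.4 RPKM. The 4 small subunits of the clamp loader were closer, from 58.2 RPKM for RFC3 to 89.0 RPKM for RFC4. CHAF1A and CHAF1B, the large subunits of the histone chaperone CAF-1, were closest, at 48.5 and 53.9 RPKM. These are RNA levels per gene length and say nothing of the protein amounts.

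Raising glucose from 5 to 50 mM for 24 h gave no call among the 41 genes. The test was limma on log2(RPKM + 1) with Benjamini-Hochberg adjustment over all genes and a threshold of 0.05, and it called 0 of the 41, against 39 of 11849 genes (0.329%). At an unadjusted p under 0.05, 1 of the 41 was higher (5.16% of all genes) and 4 were lower (5.36% of all genes), and voom on the recovered reads also called 0 by adjusted p (0.414% of all genes). Of the 41, 31 had a log2 change below 0 and 10 above 0 (40.5% of all genes were above 0). The median was −0.04, against −0.028 for all genes. The libraries of the groups did not overlap in 18 genes that were lower (26.0% of all genes) and in 2 that were higher (16.6% of all genes).

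The log2 change of GINS1, a GINS subunit, was the lowest of the 41. Its level was 33.2 and 36.7 RPKM at 5 to 50 mM, against 40.5 and 42.5 RPKM at 5 mM, a log2 change of −0.24 (SE 0.08, adjusted p = 0.372). Both of its raised libraries were below both unraised ones. CDC6, which loads the MCM ring together with CDT1, had the highest. It stood at 91.2 and 90.0 RPKM at 5 to 50 mM, against 82.0 and 76.0 RPKM at 5 mM, a log2 change of 0.20 (SE 0.06, adjusted p = 0.374). Groups of CDC6 did not overlap either. RRM1, the large subunit of the ribonucleotide reductase that makes deoxyribonucleotides, was 133 and 132 RPKM at 5 to 50 mM and 158 and 145 RPKM at 5 mM, a log2 change of −0.19 (SE 0.06, adjusted p = 0.397). Its small subunit RRM2 had a log2 change of −0.14 and cyclin E2, CCNE2, one of −0.17.

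The intervals of the change carry the spread between libraries and not between independent cultures, and each is for 1 gene taken alone. For all 41 genes the 95% interval of the change from 5 to 50 mM lay inside 1.5-fold of RPKM + 1 in either direction. For low genes such as E2F2 the same interval is wider in RPKM itself. Leaving out a library changed the count: without 5 mM replicate 1 CDC6 was called higher (6.82% of all genes were then called), and without 5 mM replicate 3 RRM1 was called lower (4.77% of all genes).

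In cells maintained at 25 mM, the rise to 50 mM likewise gave 0 calls among the 41 genes, against 1 of 11422 genes (0.00876%). At an unadjusted p under 0.05, 0 were higher (2.8% of all genes) and 2 were lower (6.45% of all genes), and voom called 0 by adjusted p (0.0613% of all genes). The log2 change was above 0 in 21 genes and below 0 in 20 (36.3% of all genes were above 0), with a median of 0.00, against −0.035 for all genes. Groups did not overlap in 5 genes that were higher (14.4% of all genes) and in 3 that were lower (29.1% of all genes). With each library centred on the median of the genes tested, 35 of the 41 were above 0 and 6 below.

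The most negative values here belonged to genes whose libraries disagreed. CDT1, the licensing factor, was 49.3 and 32.7 RPKM at 25 to 50 mM, against 45.6 and 53.3 RPKM at 25 mM, a log2 change of −0.29 (SE 0.18, adjusted p = 0.614). POLD1, the catalytic subunit of the lagging-strand polymerase delta, was 32.2 and 23.1 RPKM at 25 to 50 mM and 31.6 and 33.5 RPKM at 25 mM, a log2 change of −0.24 (SE 0.14, adjusted p = 0.593). In both genes replicate 3 of the raised group was the low library, and the groups overlapped. GINS1 was 36.6 and 43.3 RPKM at 25 to 50 mM and 45.4 and 47.1 RPKM at 25 mM, without overlap, a log2 change of −0.21 (SE 0.09, adjusted p = 0.535). CDC6 had the highest value, with 82.2 and 88.3 RPKM at 25 to 50 mM and 78.6 and 77.7 RPKM at 25 mM, a log2 change of 0.12 (SE 0.05, adjusted p = 0.543). For 39 of the 41 the interval lay inside 1.5-fold of RPKM + 1 in either direction, the exceptions being CDT1 and POLD1. Without 25 to 50 mM replicate 2, these same 2 genes were called lower (6.83% of all genes were then called).

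**Figure D2:**
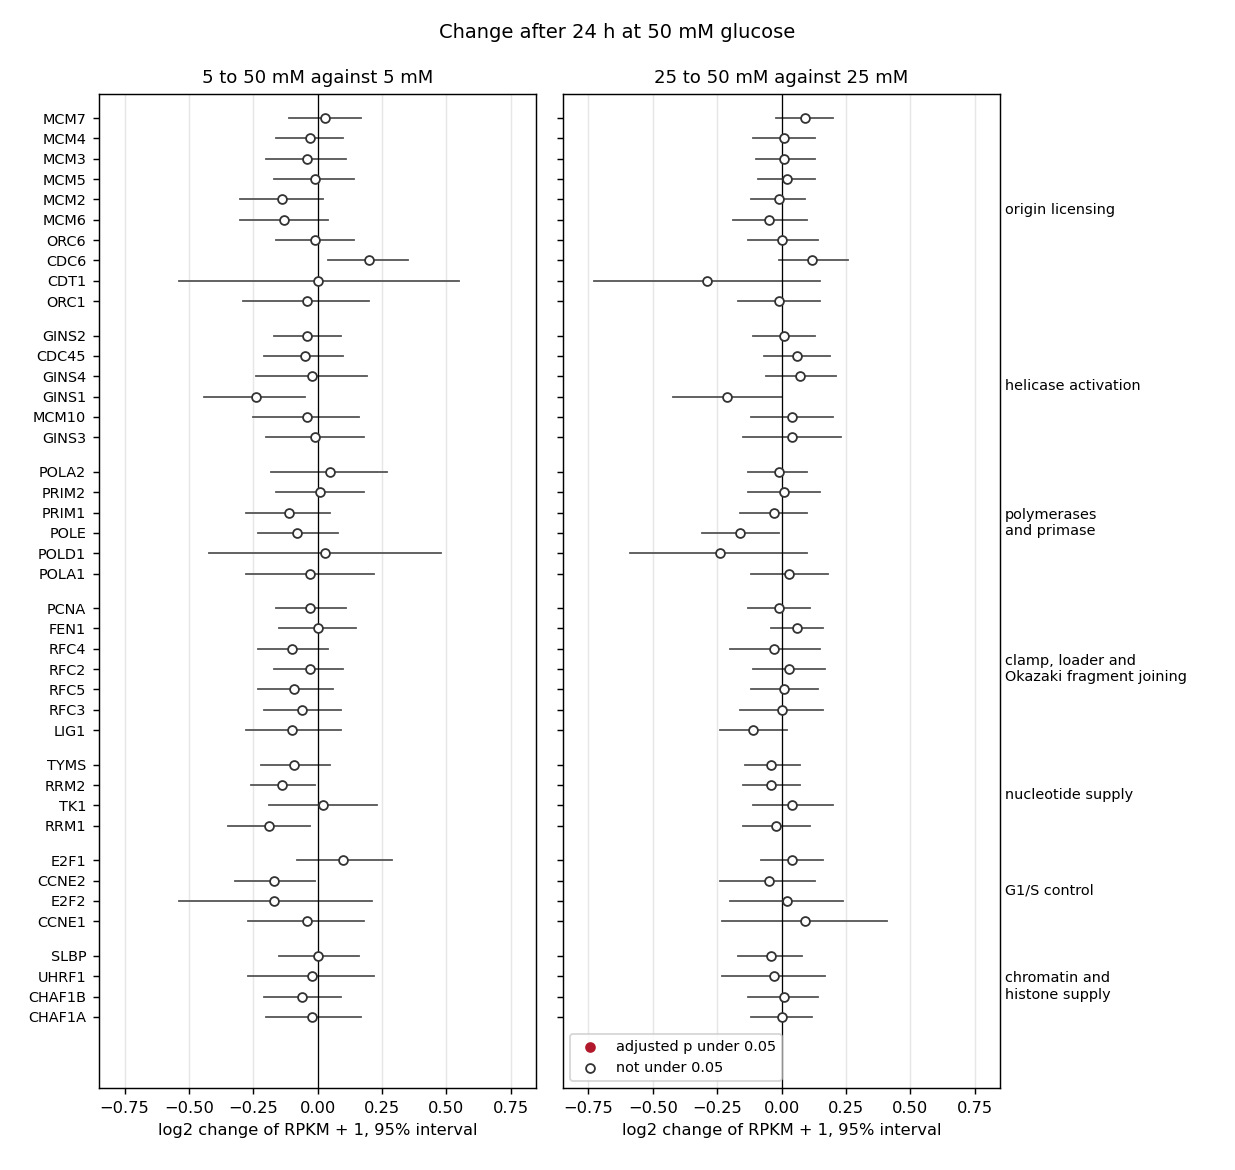
Log2 change of RPKM + 1 with its 95% interval for each of the 41 genes, from 5 to 50 mM on the left and from 25 to 50 mM on the right, ordered by role. No point is filled because no gene passed the adjusted threshold, and the widest intervals are those of CDT1 and POLD1.

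The responses to the rise were set against each other in 1 fit of all 8 libraries. The difference, the change from 25 mM minus the change from 5 mM, was called for 0 of the 41 (0.0251% of all genes), with 0 at an unadjusted p under 0.05 (2.29% of all genes higher and 3.74% lower) and 0 by voom (0.0% of all genes). It was above 0 in 32 of the 41 (46.9% of all genes), with a median of 0.06. The extremes were E2F2 at 0.19 and CDT1 at −0.29. The smallest adjusted p, for RRM1, was 0.887. The signs of the 2 responses, which share no library, were the same in 22 of the 41 genes (53.7%), against 63.4% of all genes.

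The glucose in which the cells had been maintained went with larger differences. These comparisons cross the 2 deposited tables, which were joined because 1 gene length turned both into whole reads and the upper quartiles of the 8 libraries differed by at most 1.054 times. The cultures at 25 mM and at 5 mM had been kept apart for passages, so glucose and any other difference between them cannot be told apart. At 25 mM against 5 mM, 16 of the 41 genes were called (39.0%), against 39.1% of all genes, so the share called was that of any gene. Of these 11 were higher (17.0% of all genes) and 5 were lower (22.1% of all genes). The median log2 change was 0.12, against −0.004 for all genes, and 29 of the 41 were above 0 (49.3% of all genes). Groups did not overlap in 28 of the 41 (67.8% of all genes), of which 19 were higher (32.4% of all genes) and 9 lower (35.3% of all genes).

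At 50 mM, between the raised cultures, 19 of the 41 genes were called, against 41.4% of all genes. Of these 16 were higher in 25 to 50 mM (18.1% of all genes) and 3 were lower (23.3% of all genes). The change was above 0 in 30 (46.8% of all genes). Groups did not overlap in 31 (74.8% of all genes), of which 23 were higher (34.8% of all genes) and 8 lower (39.9% of all genes). The group means at 50 mM come from 4 other libraries. Both comparisons took the spread of each gene from the same fit of all 8 libraries, so their calls are not independent. Fitted only on the 4 libraries compared, 9 genes were called at 25 mM and 22 at 50 mM. In the fit of all 8 libraries 14 genes were called in both, 11 of them higher and 3 lower. This is 87.5% of the first list and 73.7% of the second. Of all genes called, 3884 were called in both, 83.2% of those at 25 mM and 78.5% of those at 50 mM. The sign was the same in 36 of the 41 (87.8%), against 85.4% of all genes, so these shares lay near those of any gene. The summed level of the 41 genes was 4823 and 4879 RPKM at 25 to 50 mM and 4794 and 4925 RPKM at 25 mM, against 4486 and 4462 RPKM at 5 to 50 mM and 4588 and 4632 RPKM at 5 mM. In this sum every library maintained at 25 mM was above every library maintained at 5 mM. The median level of the 41 genes did not separate in this way. It was 73.2 and 77.6 RPKM at 25 to 50 mM and 74.3 and 76.3 RPKM at 25 mM. At 5 to 50 mM it was 78.0 and 73.5 RPKM, and at 5 mM 69.5 and 68.2 RPKM.

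**Figure D3:**
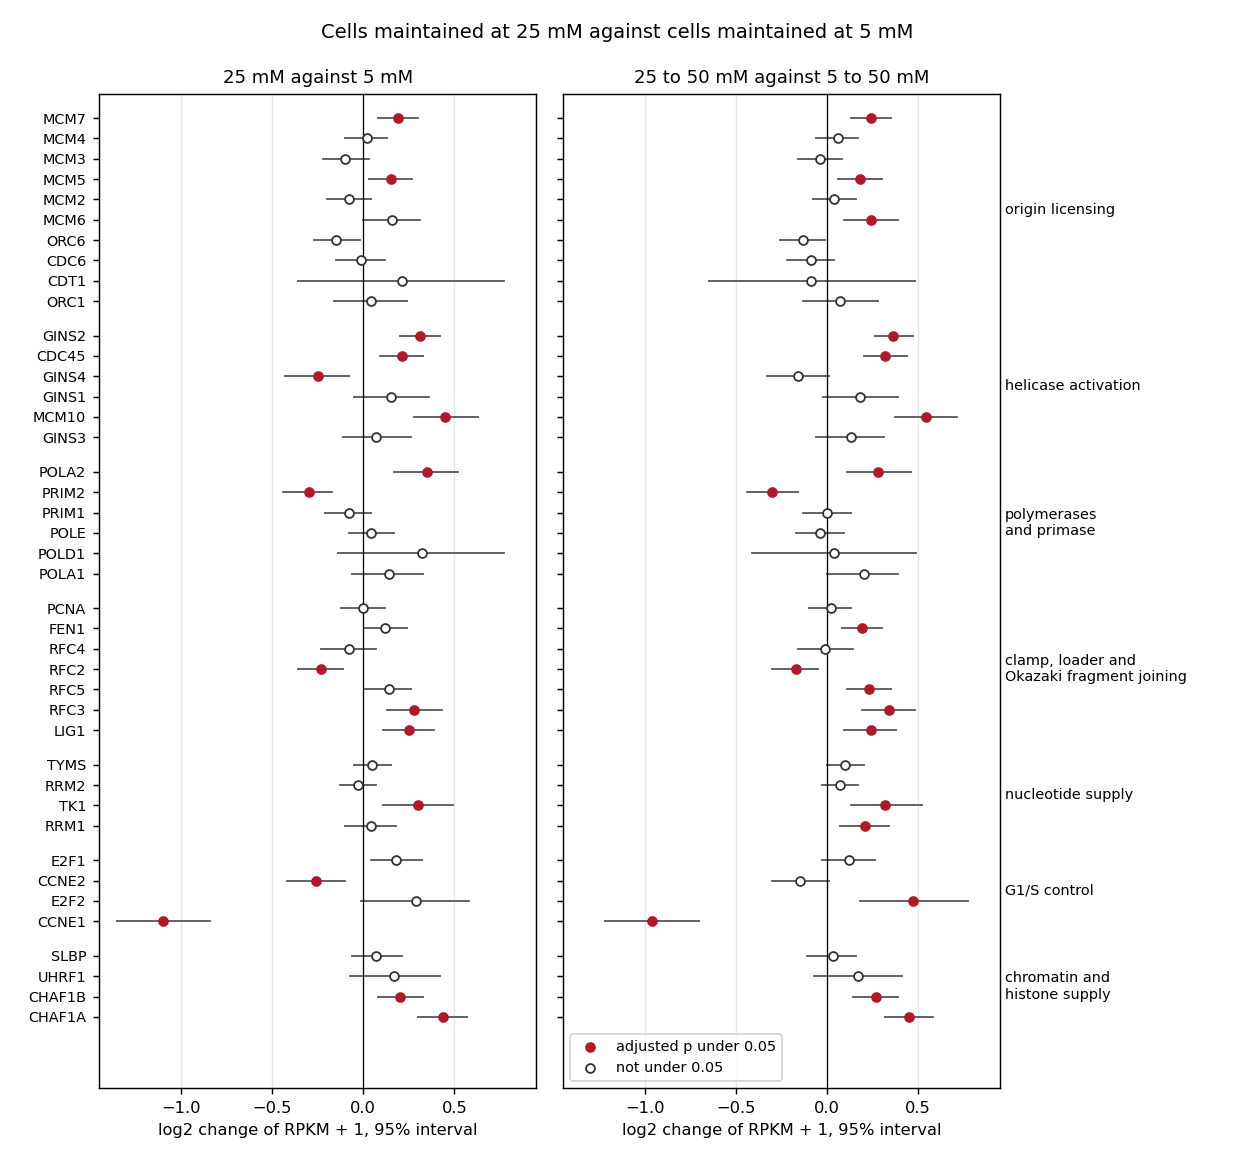
Log2 change of RPKM + 1 with its 95% interval for each of the 41 genes, 25 mM against 5 mM on the left and 25 to 50 mM against 5 to 50 mM on the right. Filled points passed the adjusted threshold, 16 on the left and 19 on the right, and CCNE1 lies far to the left of all others, at −1.10 and −0.96.

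The median log2 change at 25 mM against 5 mM was 0.124 with all libraries. It was 0.132 without 25 mM replicate 1 and 0.095 without 25 mM replicate 3. Without 5 mM replicate 1 it was 0.077, and without 5 mM replicate 3 it was 0.101. The number of called genes depended on which library was left out, in this comparison and in that at 50 mM. CCNE1, CHAF1A, GINS2, MCM10 and PRIM2 were called in both comparisons under every alternative in which they were tested. Each of the other called genes lost a call under at least 1 alternative in at least 1 of these comparisons. CHAF1B and MCM7 at 25 mM, and RRM1 at 50 mM, held their calls under 10 alternatives and lost them under 5. For CDC45 at 25 mM and FEN1, LIG1 and MCM6 at 50 mM these numbers were 11 and 4. For E2F2, POLA2 and RFC5 at 50 mM, CCNE2 and LIG1 at 25 mM, and TK1 in both, they were 12 and 3.

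Among the G1/S control genes, cyclin E1, CCNE1, had the largest difference of the 41. The gene lies at chr19:29811991-29824312 (GRCh38). Its level was 2.61 and 2.3 RPKM at 25 mM, against 6.51 and 6.25 RPKM at 5 mM, a log2 change of −1.10 (SE 0.11, adjusted p = 0.000223). At 50 mM it was 2.34 and 3.05 RPKM in 25 to 50 mM, against 6.22 and 6.11 RPKM in 5 to 50 mM, a log2 change of −0.96 (SE 0.11, adjusted p = 0.000409). All 4 libraries maintained at 25 mM were below all 4 maintained at 5 mM. CCNE2, its sister cyclin with the same partner CDK2, was the more abundant, at a mean of 36.4 RPKM. It was 32.3 and 36.4 RPKM at 25 mM, against 41.5 and 41 RPKM at 5 mM, and fell by 0.26 on the log2 scale (SE 0.07, adjusted p = 0.0191). At 50 mM it was 32.0 and 34.2 RPKM in 25 to 50 mM and 37.0 and 36.3 RPKM in 5 to 50 mM, which did not pass (−0.15, adjusted p = 0.127). Both cyclin E genes thus had their lower libraries at 25 mM, with very unequal sizes.

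The E2F activators differed in sign from the cyclins. E2F2 was 6.53 and 6.15 RPKM in 25 to 50 mM, against 5.02 and 3.64 RPKM in 5 to 50 mM, and rose by 0.47 on the log2 scale (SE 0.13, adjusted p = 0.0193). At 25 mM it was 6.51 and 5.99 RPKM, against 5.05 and 4.81 RPKM at 5 mM, a log2 change of 0.29 that did not pass (adjusted p = 0.109). E2F1, the most abundant of the G1/S control genes, was 82.0 and 85.2 RPKM at 25 mM, against 69.5 and 77.9 RPKM at 5 mM, just short of the threshold (0.18, adjusted p = 0.0507). At 50 mM it was 86.9 and 84.9 RPKM in 25 to 50 mM and 78.0 and 80.4 RPKM in 5 to 50 mM (0.12, adjusted p = 0.17). In both genes the groups did not overlap.

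Of the 6 genes of helicase activation, 3 were higher and 1 lower at 25 mM, and the same 3 were higher at 50 mM. At 25 mM 17.0% of all genes were higher and 22.1% lower, and at 50 mM 18.1% were higher and 23.3% lower. MCM10, which helps the helicase start to unwind, had the largest rise of the 41. Its level was 45.1 and 43.3 RPKM at 25 mM, against 33.8 and 30.3 RPKM at 5 mM, a log2 change of 0.45 (SE 0.07, adjusted p = 0.00229). At 50 mM it was 43.3 and 47.7 RPKM in 25 to 50 mM, against 30.4 and 31.6 RPKM in 5 to 50 mM, a log2 change of 0.54 (SE 0.07, adjusted p = 0.00095). GINS2 was 140 and 145 RPKM at 25 mM, against 115 RPKM in both libraries at 5 mM, and rose by 0.31 (SE 0.05, adjusted p = 0.00141). It was 140 and 148 RPKM in 25 to 50 mM, against 112 and 111 RPKM in 5 to 50 mM, a log2 change of 0.36. These 2 genes had no overlap between maintenance conditions in any of the 8 libraries. CDC45, the helicase subunit that joins with GINS, was 57.8 and 59.2 RPKM at 25 mM, against 51.0 and 49.9 RPKM at 5 mM, a log2 change of 0.21 (adjusted p = 0.0134). It was 59.6 and 62.4 RPKM in 25 to 50 mM, against 47.6 and 49.5 RPKM in 5 to 50 mM, a log2 change of 0.32 (adjusted p = 0.00179).

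Of the 4 GINS subunits GINS2 was called higher in both comparisons and GINS4 lower at 25 mM alone. GINS4 was 42.6 and 42.2 RPKM at 25 mM, against 54.7 and 47.1 RPKM at 5 mM, and fell by 0.25 (SE 0.07, adjusted p = 0.0272). At 50 mM its levels were 43.5 and 45.8 RPKM in 25 to 50 mM and 49.7 and 50.2 RPKM in 5 to 50 mM, which did not pass (−0.16, adjusted p = 0.12). The GINS4 call held under 7 alternatives and was lost under 8, and without 5 mM replicate 1 its log2 change was −0.15 (adjusted p = 0.0762). GINS1 had log2 changes of 0.15 and 0.18 and passed in neither comparison. GINS3, the least abundant of these subunits, was 34.9 and 33.9 RPKM in 25 to 50 mM, 31.2 and 35.7 RPKM at 25 mM, 32.3 and 30.5 RPKM in 5 to 50 mM, and 30.4 and 33.1 RPKM at 5 mM, and passed in neither.

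**Figure D4:**
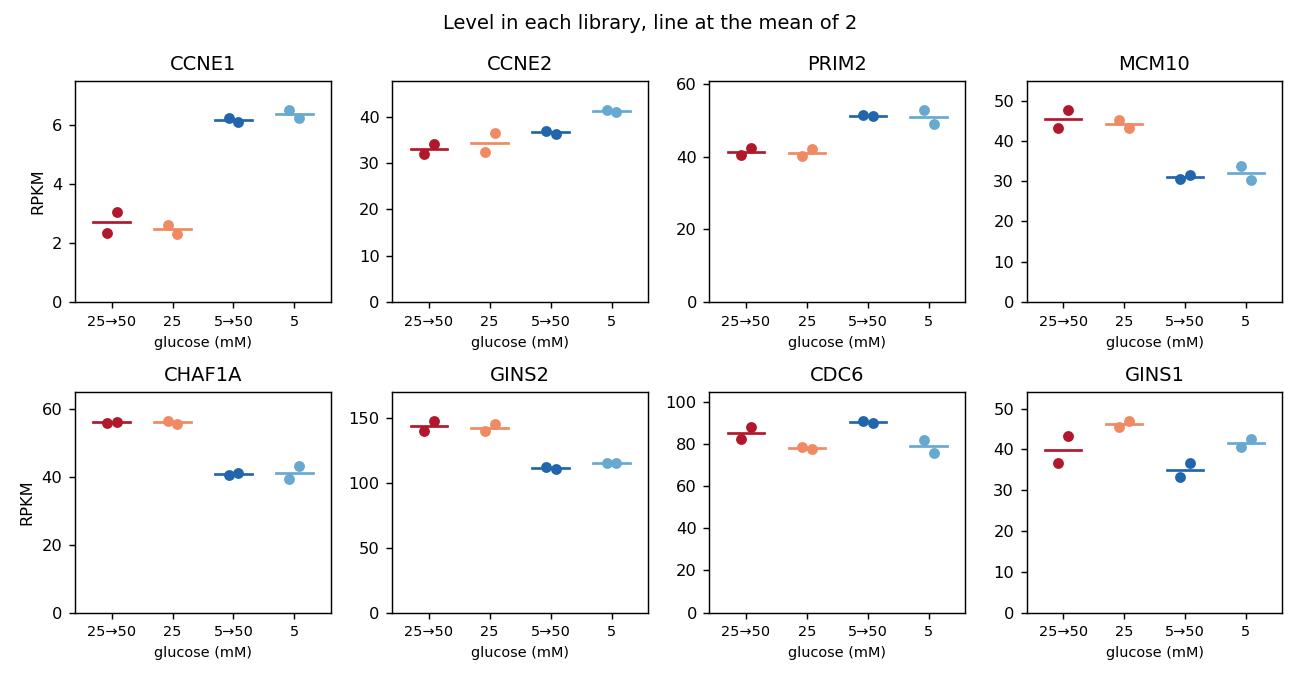
Level in RPKM of 8 genes in each library, with a line at the mean of the 2 libraries, in the order 25 to 50 mM, 25 mM, 5 to 50 mM and 5 mM. CCNE1 and PRIM2 are lower and MCM10, CHAF1A and GINS2 higher in the cultures maintained at 25 mM in both comparisons, CCNE2 is lower at 25 mM than at 5 mM without passing between the 50 mM groups, and CDC6 and GINS1 are the genes with the extreme changes after the rise from 5 to 50 mM, neither of which passed the test.

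In origin licensing, 2 of the 10 genes were higher at 25 mM and 3 at 50 mM, with 0 lower, where 17.0% and 18.1% of all genes were higher. MCM7, the most abundant MCM gene, was 284 and 280 RPKM at 25 mM, against 253 and 242 RPKM at 5 mM, a log2 change of 0.19 (SE 0.05, adjusted p = 0.0167). It was 293 and 306 RPKM in 25 to 50 mM, against 247 and 259 RPKM in 5 to 50 mM, a log2 change of 0.24 (adjusted p = 0.00504). MCM5 was 157 and 153 RPKM at 25 mM, against 134 and 145 RPKM at 5 mM, a log2 change of 0.15 close to the threshold (adjusted p = 0.0482). That call held under 6 alternatives and was lost under 9, with a change of 0.09 without 5 mM replicate 1 (adjusted p = 0.148). MCM7 and MCM5 showed no overlap between groups in either comparison. At 50 mM MCM5 was 158 and 156 RPKM in 25 to 50 mM, against 138 and 139 RPKM in 5 to 50 mM, a log2 change of 0.18 (adjusted p = 0.0229), a call held under 9 alternatives and lost under 6, among them each of the 4 that left out a library of these groups. MCM6 was 96.9 and 103 RPKM in 25 to 50 mM, against 86.9 and 82.2 RPKM in 5 to 50 mM, and rose by 0.24 (SE 0.07, adjusted p = 0.0218), while at 25 mM its change of 0.16 did not pass. The other MCM subunits MCM2, MCM3 and MCM4 had changes between −0.10 and 0.06 in both comparisons and were not called. ORC1, the least abundant licensing gene, was 29.9 and 32.8 RPKM in 25 to 50 mM, 31.2 and 31.8 RPKM at 25 mM, 30.2 and 29.2 RPKM in 5 to 50 mM, and 33.3 and 28.0 RPKM at 5 mM, and passed in no comparison.

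In polymerase alpha and primase POLA2 was called higher and PRIM2 lower. POLA2, the regulatory subunit of polymerase alpha, was 92.6 and 94.5 RPKM at 25 mM, against 79.2 and 68.1 RPKM at 5 mM, a log2 change of 0.35 (SE 0.07, adjusted p = 0.00781). It was 92.6 RPKM in both 25 to 50 mM libraries, against 78.3 and 73.5 RPKM in 5 to 50 mM, a log2 change of 0.28 (adjusted p = 0.0167). PRIM2, the large primase subunit, went the other way in both comparisons. It was 40.1 and 42.1 RPKM at 25 mM, against 52.9 and 48.9 RPKM at 5 mM, and fell by 0.30 (SE 0.06, adjusted p = 0.00523). It was 40.5 and 42.3 RPKM in 25 to 50 mM, against 51.4 and 51.1 RPKM in 5 to 50 mM, also with a log2 change of −0.30 (adjusted p = 0.00492). PRIM2 has near-identical copies in the genome among which reads can be split, so its level is uncertain. POLA1, the catalytic subunit, was 24.5 and 25.5 RPKM in 25 to 50 mM, 24.2 and 24.7 RPKM at 25 mM, 21.7 RPKM in both 5 to 50 mM libraries, and 24.2 and 20.3 RPKM at 5 mM, with changes of 0.14 and 0.20 that did not pass. PRIM1 and POLE, the primase catalytic subunit and the leading-strand polymerase, had changes between −0.08 and 0.04.

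PCNA, the clamp that tethers polymerases to DNA and the most abundant of the 41, passed in no comparison. It was 616 and 626 RPKM in 25 to 50 mM, 604 and 647 RPKM at 25 mM, 628 and 599 RPKM in 5 to 50 mM, and 612 and 639 RPKM at 5 mM. Its intervals ran from −0.12 to 0.12 at 25 mM and from −0.10 to 0.13 at 50 mM. Of the clamp loader's small subunits, RFC3 was higher and RFC2 lower in both comparisons. RFC3 was 60.9 and 68.3 RPKM at 25 mM, against 52.8 and 53.1 RPKM at 5 mM, a log2 change of 0.28 (SE 0.06, adjusted p = 0.00983). At 50 mM it was 63.5 and 65.5 RPKM in 25 to 50 mM, against 49.9 and 51.7 RPKM in 5 to 50 mM, a log2 change of 0.34 (adjusted p = 0.0039). RFC2 was 74.3 and 72.0 RPKM at 25 mM, against 84.8 and 87.4 RPKM at 5 mM, and fell by 0.23 (SE 0.05, adjusted p = 0.0106). Groups of both genes stood apart. RFC2 was 71.7 and 77.6 RPKM in 25 to 50 mM, against 84.1 and 84.2 RPKM in 5 to 50 mM, a log2 change of −0.17 (adjusted p = 0.0333). This second call held under 8 alternatives and was lost under 7, and with a correction for GC content described further on it was −0.06 (adjusted p = 0.36). RFC5 was 73.2 and 77.6 RPKM in 25 to 50 mM, against 62.7 and 65.7 RPKM in 5 to 50 mM, and rose by 0.23 (adjusted p = 0.0101), with 0.14 at 25 mM (adjusted p = 0.0754). RFC4 passed in neither.

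The enzymes that finish Okazaki fragments, the short pieces of the lagging strand, were on the higher side. LIG1, the ligase that seals them, was 62.2 and 61.9 RPKM at 25 mM, against 49.4 and 54.6 RPKM at 5 mM, a log2 change of 0.25 (SE 0.06, adjusted p = 0.0138). It was 58.8 and 55.9 RPKM in 25 to 50 mM, against 47.7 and 49.3 RPKM in 5 to 50 mM, a log2 change of 0.24 (adjusted p = 0.017). FEN1, the nuclease that trims the flap before ligation, was 189 and 188 RPKM in 25 to 50 mM, against 159 and 171 RPKM in 5 to 50 mM, and rose by 0.19 (SE 0.05, adjusted p = 0.0166). At 25 mM FEN1 was 179 and 181 RPKM, against 168 and 163 RPKM at 5 mM, which did not pass (0.12, adjusted p = 0.0768).

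Among the genes of nucleotide supply TK1, the S-phase thymidine kinase of the salvage route, was higher in both comparisons. It was 363 and 337 RPKM at 25 mM, against 264 and 305 RPKM at 5 mM, a log2 change of 0.30 (SE 0.08, adjusted p = 0.0239). It was 379 and 343 RPKM in 25 to 50 mM, against 278 and 299 RPKM in 5 to 50 mM, a log2 change of 0.32 (adjusted p = 0.0169). RRM1 was 148 and 158 RPKM in 25 to 50 mM, against 133 and 132 RPKM in 5 to 50 mM, and rose by 0.21 (SE 0.06, adjusted p = 0.0259). At 25 mM it was 151 and 159 RPKM, with 158 and 145 RPKM at 5 mM, and the groups overlapped. TYMS, which makes thymidylate, was 391 and 400 RPKM in 25 to 50 mM, 398 and 414 RPKM at 25 mM, 376 and 362 RPKM in 5 to 50 mM, and 399 and 385 RPKM at 5 mM, and passed in neither comparison. TYMS overlaps ENOSF1 on the other strand, and whether the counting used strand is not given in the sources used here.

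The CAF-1 subunits, which place histones on new DNA, were both higher. CHAF1A, at chr19:4402640-4450830, was 56.5 and 55.5 RPKM at 25 mM, against 39.2 and 43.2 RPKM at 5 mM, a log2 change of 0.44 (SE 0.06, adjusted p = 0.000854). It was 55.9 and 56.1 RPKM in 25 to 50 mM, against 40.4 and 41 RPKM in 5 to 50 mM, a log2 change of 0.45 (adjusted p = 0.00069). CHAF1B was 58.8 and 57.6 RPKM at 25 mM, against 51.2 and 49.8 RPKM at 5 mM, a log2 change of 0.20 (adjusted p = 0.0193). Neither gene's groups overlapped. CHAF1B was 56.4 and 60.5 RPKM in 25 to 50 mM, against 47.8 and 48.9 RPKM in 5 to 50 mM, a log2 change of 0.27 (adjusted p = 0.00536). SLBP, which binds the stem-loop at the end of histone mRNAs, was 165 and 171 RPKM in 25 to 50 mM, 167 and 180 RPKM at 25 mM, 167 and 162 RPKM in 5 to 50 mM, and 158 and 171 RPKM at 5 mM, and passed in neither.

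The genes around this set moved in both directions between the maintenance conditions, and 0 of those listed were called in either rise. Of 22 tested genes of RB and E2F control, 7 were higher and 5 lower at 25 mM, and 8 higher and 6 lower at 50 mM. Here and in the lists that follow, the shares of all genes were 17.0% higher and 22.1% lower at 25 mM, and 18.1% higher and 23.3% lower at 50 mM. Cyclin D1, CCND1, which with CDK4 or CDK6 inactivates RB, was 18.6 and 21.1 RPKM at 25 mM, against 107 and 130 RPKM at 5 mM, and fell by 2.51 (SE 0.11, adjusted p = 5.1e-06). CDK6 was 15.3 and 13.4 RPKM at 25 mM, against 7.19 and 6.37 RPKM at 5 mM, a log2 change of 0.98 (SE 0.11, adjusted p = 0.000336). SKP2, the ubiquitin ligase subunit that targets p27, averaged 95.5 RPKM at 25 mM, against 54.1 RPKM at 5 mM (log2 change 0.81). Cyclin D1 and cyclin E1 were thus low in the same cultures in which SKP2, CDK6, the S-phase cyclin CCNA2 (log2 change 0.60), the phosphatase CDC25A (0.52) and the E2F partner TFDP1 (0.44) were high. The repressor E2Fs E2F7 and E2F8 were lower at 25 mM, by log2 changes of −0.44 and −0.30, and CDK2, FBXO5, E2F5 and CDK4 had changes of 0.15, 0.26, −0.44 and −0.14.

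Of 6 tested CDK inhibitors 2 were higher and 2 lower at both final glucose levels, where 17.0% and 18.1% of all genes were higher. CDKN1A, which encodes p21, was 50.6 and 54.9 RPKM at 25 mM, against 141 and 224 RPKM at 5 mM, and fell by 1.73 (SE 0.23, adjusted p = 0.000827). CDKN2C, which encodes the CDK4 and CDK6 inhibitor p18, was 194 and 190 RPKM at 25 mM, against 113 and 110 RPKM at 5 mM, a log2 change of 0.78 (adjusted p = 1.95e-05). CDKN1B, the gene of p27, rose by 0.29 and CDKN2D fell by 0.22. The inhibitors with the largest values thus had opposite signs.

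Replication factors outside the 41 were called in both directions at 25 mM, where 17.0% of all genes were higher and 22.1% lower. In the licensing, fork and nucleotide lists more were called higher than lower. Of 14 other licensing and initiation factors 6 were higher at 25 mM (ORC3 0.37, MCMBP 0.28, TOPBP1 0.27, TICRR 0.25, DONSON 0.24 and DBF4 0.19 in log2 change) and 1 was lower (ORC5 −0.28). Of 18 other fork and Okazaki factors 6 were higher (POLE2 0.34, DSCC1 0.26, RPA1 0.25, TIMELESS 0.24, DNA2 0.24 and POLD2 0.17) and 2 were lower (POLE4 −0.49 and RPA2 −0.31). Of 13 other genes of nucleotide supply 5 were higher, among them DUT at 0.40 and the purine synthesis genes GART and PAICS at 0.38 each and IMPDH2 at 0.34. The 3 lower ones were SAMHD1, which breaks down deoxyribonucleotides, with means of 57.8 RPKM at 25 mM, against 99.1 RPKM at 5 mM (−0.77), the nucleoside transporter SLC29A1 (−0.35) and the p53-linked reductase subunit RRM2B (−0.35). Of 7 other chromatin factors ASF1A, the histone chaperone that feeds CAF-1, rose by 0.60 and RBBP4, the small CAF-1 subunit, fell by 0.26. Of 9 checkpoint genes ATRIP and ETAA1, which both act with the ATR kinase, had changes of 0.31 and 0.23.

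Of 23 G2/M genes, which act later in the cell cycle, 10 were higher at 25 mM (17.0% of all genes were higher and 22.1% lower) and 14 at 50 mM (18.1% of all genes were higher and 23.3% lower), with 0 lower and medians of 0.21 and 0.24. After the rises they had medians of −0.09 from 25 mM and −0.14 from 5 mM, against −0.035 and −0.028 for all genes. Of the 23, 22 were below 0 each time and 0 were called, where 36.3% and 40.5% of all genes were above 0. Of 24 cytosolic ribosomal protein genes 8 were higher at 25 mM (17.0% of all genes) and 15 at 50 mM (18.1% of all genes), with 0 lower. Of 71 replication-dependent histone genes listed, 31 passed the filter over 8 libraries and 13 over the 4 libraries maintained at 25 mM. Of those 31, 25 were lower at 25 mM, with a median of −1.16, but a gene that passed through the cultures at 5 mM alone had to be lower, and reads of these near-identical genes can be split. Their transcripts lack poly(A) tails, and the labels name total RNA with no selection step.

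GC content moved with a difference between libraries of 1 group, and it touched some of these genes. Among the 2384 genes tested with the highest GC content, from 58.9% to 74.1%, 5 mM replicate 1 differed from replicate 3 by a median log2 of −0.28, and 25 to 50 mM replicate 2 differed from replicate 3 by 0.18. The 6 of the 41 genes in that range had medians of −0.18 and 0.11. CDT1, with 66.0% GC, was 34.2 and 53.0 RPKM in 5 mM replicates 1 and 3, and POLD1, with 64.1% GC, was 21.4 and 31.4 RPKM. UHRF1, with 58.1% GC, which recruits the maintenance DNA methyltransferase, was 73.3 and 89.0 RPKM in the same libraries. TK1, with 61.3% GC, was 264 and 305 RPKM in these 2 libraries, and its call at 25 mM was lost without 5 mM replicate 1 (0.20, adjusted p = 0.0866). These 4 genes were lower in 5 mM replicate 1 and in 25 to 50 mM replicate 3 than in the other library of the same group.

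**Figure D5:**
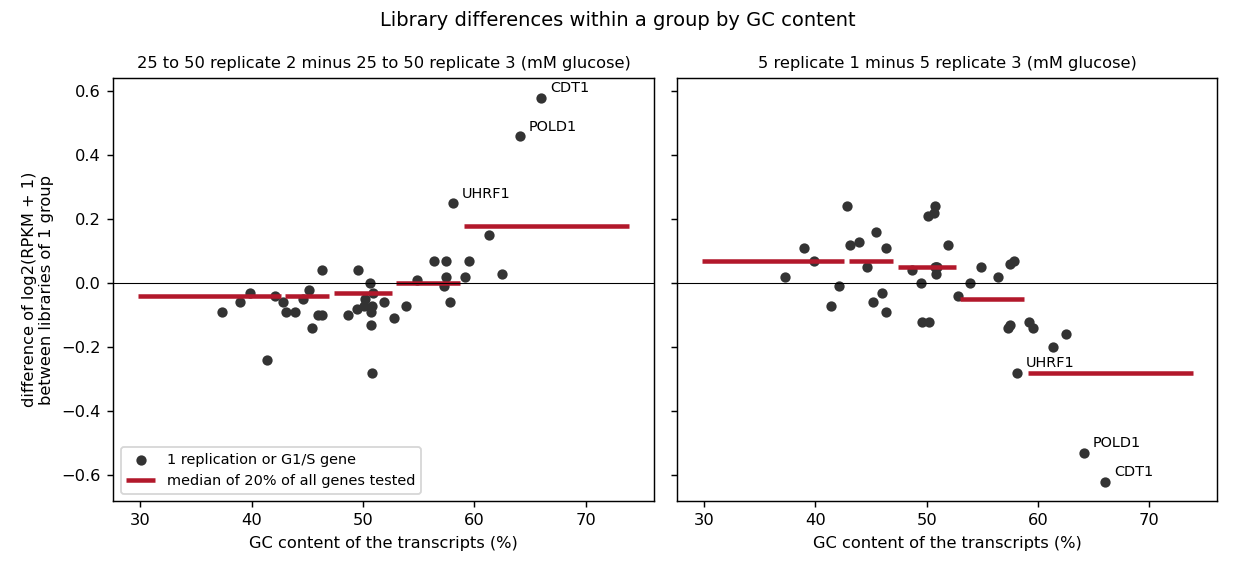
Difference of log2(RPKM + 1) between the libraries of 1 group against transcript GC content, for the 41 genes (points) and as medians of 5 equal groups of all genes tested by GC content (lines), at 25 to 50 mM on the left and 5 mM on the right. CDT1 and POLD1 lie at the GC-rich end and depart most, upward on the left and downward on the right.

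A correction for GC content, chosen after the data were seen, raised the counts between maintenance conditions for these and for all genes. Its fit also removed the mean offset of each library, so part of the shifts can be common to all genes. ORC1, with 50.7% GC, moved from 0.04 to 0.14 at 25 mM against 5 mM. How much came from GC content and how much from this offset was not tested. At 25 mM against 5 mM, 27 of the 41 were then called (52.0% of all genes), 24 higher (32.6% of all genes) and 3 lower (19.4% of all genes), with a median of 0.187. At 50 mM, 28 were called (54.6% of all genes), 26 higher (35.2% of all genes) and 2 lower (19.4% of all genes). With the correction POLD1 rose at 25 mM by 0.38 (SE 0.07, adjusted p = 0.00202), UHRF1 by 0.31 (adjusted p = 0.00627) and CDT1 by 0.23 (adjusted p = 0.035). Of the MCM ring, MCM4, MCM5, MCM6 and MCM7 were then called higher at 25 mM, by 0.12, 0.28, 0.21 and 0.32. At 50 mM MCM2 was called too, at 0.19, with 0.17, 0.35, 0.30 and 0.39 for those 4, while MCM3, at 0.01 and 0.07, passed in neither. GINS4 and RFC2 no longer passed at 25 mM (adjusted p = 0.0833 and 0.0666) and RFC2 no longer at 50 mM, and CCNE1 kept a log2 change of −0.99. Both rises still had 0 of the 41 called, with 0.105% of all genes called from 25 mM and 1.64% from 5 mM, and the change of CDT1 from 25 to 50 mM was −0.03 (SE 0.07).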

How the data were processed

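RNA of AC16 cells was sequenced in 8 libraries, 2 per glucose condition. The authors deposited RPKM values in 2 tables, 1 per maintenance glucose; per the submitters' processing notes STAR and hg38 were used, and the counting tool and annotation are not given in the sources used here. Whole reads were recovered to learn depth, with 100% of the 16297 genes above 0 within 0.001 of whole reads. Groups come from the sample titles.

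Values were taken as log2(RPKM + 1), which understates changes of low genes. A gene was tested if 2 or more of the fitted libraries reached 1 RPKM. The test was limma 3.58.1 (R 4.3.3, mean-variance trend, two-sided), with p-values adjusted by Benjamini-Hochberg over all genes tested. The rises were fitted on their own 4 libraries, the other comparisons on all 8. GC content is from GENCODE 29 transcripts and promoter windows are from RefSeq GRCh38.p14. Count tests were not run on these RPKM values; voom on the recovered reads was an alternative, as were other pseudocounts, filters, centring, no trend, a replicate block and leaving out each library. A GC correction (a spline with 5 degrees of freedom, which also removes the mean offset of each library) was added after the data were seen. So was leaving out 2 libraries together that were low in GC-rich genes.

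The 41 genes and all lists were chosen with earlier results of these data known. Values per library are given for members called in any comparison, the 2 with the largest change in each, and the highest and lowest of each role; of the other lists, called members are named, except 1 that is not reported here. Libraries of a group differed by more than counting error (chi-square per degree of freedom 2.6 to 16.57), so none was counted as a copy.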

Additional observations from a re-analysis of the deposited data

How the results depend on the processing

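Pseudocounts of 0.1 and 0.5 RPKM, other filters, no trend and voom kept the counts of called genes within 1.5 times. Leaving out 1 library gave 0 to 1 called genes from 5 to 50 mM and 0 to 2 from 25 to 50 mM. It gave 6 to 18 at 25 mM against 5 mM, where the median log2 change ran from 0.077 to 0.132, and 10 to 13 at 25 to 50 mM against 5 to 50 mM; the lone library left in a group is assumed to vary like the others. A fit of 4 libraries gave 9 at 25 mM. Without 5 mM replicate 1 and 25 to 50 mM replicate 3 the median at 25 mM was 0.077, and 18 genes were called at 25 mM and 23 between the 50 mM groups. GC correction gave 27 called and a median of 0.187 at 25 mM, and a median of 0.238 at 50 mM. Centring gave medians of 0.053 from 25 to 50 mM and 0.176 between the 50 mM groups. For these departures the cause was not tested beyond the construction of each alternative.

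Replicate numbers 1 and 3 occur at both 25 mM and 5 mM, with a correlation of library differences of 0.26, but only 2 such pairs exist and nothing in the labels ties them, so they were not treated as pairs. With the replicate block 10 genes were called at 25 mM and 11 between the 50 mM groups, with 0 in each rise.

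Of 523 values for single called genes under these alternatives, 436 kept direction and call, 87 kept direction without the call and 0 reversed.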
